A study of Aspergillus niger with 6 samples.

Results

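The comparison covered the whole sampled course of a citrate fermentation by Aspergillus niger strain H915-1, as the difference in gene expression between 48 h and 6 h of culture. Both libraries came from cultures supplied with 3 vvm of air, where 1 vvm of air equals 1 culture volume each minute, and each time had 1 library. Members were the genes with at least 1 FPKM at 48 h or at 6 h, where FPKM counts the sequenced fragments of a gene relative to its length and to the size of the library. They numbered 9036 of the 9953 genes listed for the time course, and 10257 genes were listed in the series as a whole. The change of a gene was log2 of (FPKM at 48 h + 1) over (FPKM at 6 h + 1), a scale that understates the change of low genes. Libraries at 12, 24 and 36 h and 3 vvm, which had no part in choosing the members, gave the course between the ends. A library at 48 h and 1.5 vvm was set beside them. All 6 libraries were of the same strain, and the labels used here state strain, age and aeration alone, without the medium or the number of cultures behind a library. RNA came from fungal pellets collected on a filter cloth. With 1 library at each time no difference has a replicate check, and no p-value was computed for the comparison. A difference in time cannot be told apart from a difference between the cultures or libraries sampled.

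Aspergillus niger is a filamentous fungus used to make citric acid from sugar. In textbook accounts, sugar is taken through glycolysis to pyruvate, citrate synthase joins acetyl-CoA and oxaloacetate in the mitochondrion, and citrate is exported from the cell under acid, well-aerated and metal-limited conditions. Growth dominates early in such a culture and acid is formed later. Filamentous fungi also keep many genes of secondary metabolism in clusters of neighbours on the chromosome. The deposited identifiers matched 0 of the 14404 genes in the RefSeq table for assembly ASM285v2, so none of the genes below could be given a name or a function. No gene list of a pathway, such as glycolysis, the citrate cycle or acid export, could be applied. Genes are therefore identified by contig and by their first and last base on the authors' contigs, and sets of genes by their course or their position.

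Recovered fragments totalled 6100480 at 48 h and 5062817 at 6 h. The 3 libraries in between held 5199184 to 5371485 fragments. Where a gene had no fragment, up to 3 remain possible from counting error alone, and for a gene of median length these are worth 0.436 FPKM at 48 h and 0.524 FPKM at 6 h. For the 7135 members with over 20 fragments at both ends, the log2 change in fragments and that in FPKM, here without the pseudocount, differed by at most 0.14.

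Most genes were at a similar level at the 2 ends of the course, and a minority differed by large factors in both directions. The median log2 change over the 9036 members was 0.04, and 6376 genes were within 2-fold. In RNA from whole pellets, fewer cells of a type and less RNA per cell cannot be told apart. The range between the 25th and 75th percentiles ran from -0.51 to 0.67, and the 1st and 99th percentiles were -3.32 and 4.24. A total of 2731 members (30.2%) were within 1.25-fold of their 6 h level. At least 2-fold higher at 48 h were 1577 genes (17.5%), and at least 2-fold lower were 1083 (12.0%), together 29.4% of the members. At least 4-fold higher were 558 genes (6.18%), and at least 4-fold lower were 267 (2.95%), together 9.13% of the members. At the 16-fold mark 106 genes (1.17%) were higher and 53 (0.587%) were lower, together 1.76%. These shares were fixed by the contrast that chose the members and are a description. The members nearest to the 4-fold mark had absolute log2 changes of 2.0005 just inside and 1.99999 just outside it. At the filter, the lowest member reached 1.0005 FPKM at its higher end and the highest gene left out reached 0.996 FPKM.

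Counting error was set beside these differences with the fragments of the same 2 libraries that chose the genes. Well-covered genes at least 2-fold apart there mostly clear a ratio of 1 by that choice. The counts below therefore describe coverage and test nothing, and the share over all members is not given here. The exact 95% binomial (Clopper-Pearson) interval of the fragment ratio lay above 1 for 1472 of the 1577 higher genes. It lay below 1 for 1008 of the 1083 lower genes. The interval lay wholly past 2-fold for 987 of the higher and 600 of the lower genes. At the higher end of the pair, the median was 206 fragments for the higher genes and 174 for the lower genes, and 104 and 95 genes of these groups had under 10 fragments there. No fragment was counted at 6 h for 120 of the higher genes and none at 48 h for 65 of the lower genes. The intervals say nothing of the spread between cultures.

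**Figure D1:**
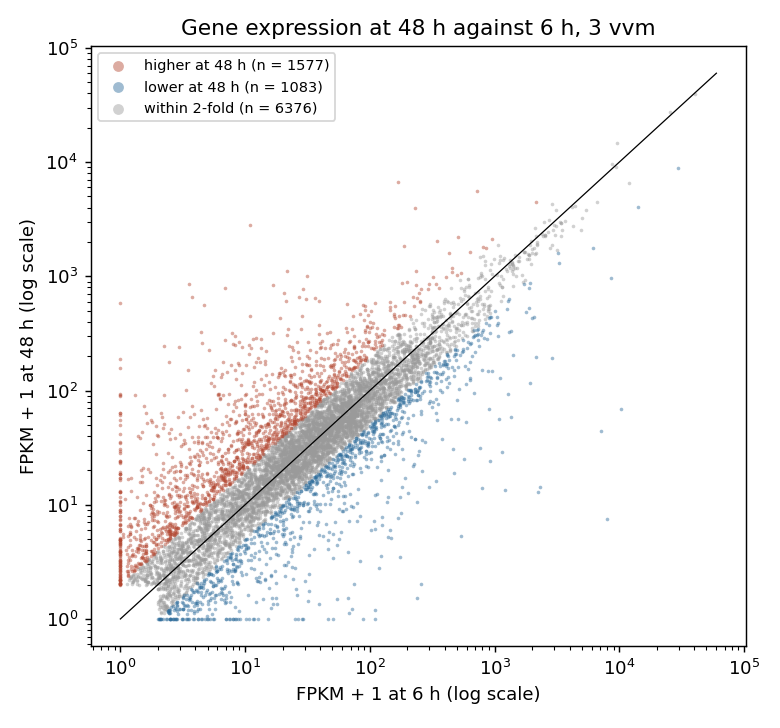
Each point is 1 of the 9036 members, at its FPKM + 1 at 6 h (horizontal, log scale) and at 48 h (vertical, log scale), and the line marks equal values. Genes at least 2-fold higher at 48 h (1577) lie above the grey band, and genes at least 2-fold lower (1083) lie below it, while the points lined up along the axes at 1 are genes listed at 0 in 1 of the 2 libraries.

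The balance between higher and lower genes depended on the level of expression. Of the 643 genes that reached at least 300 FPKM at their higher end, 16.8% were at least 2-fold higher at 48 h and 23.3% were at least 2-fold lower. Of the 8393 genes below that level, 17.5% were higher and 11.1% were lower. Strongly expressed genes were thus more often lower than higher at 48 h, and the reverse held below 300 FPKM. With FPKM rescaled to a common sum, the shares of the strongly expressed genes were 18.8% higher and 19.8% lower, close to even. The same rescaling placed the median log2 change of all members at 0.18 in place of 0.04, because the summed FPKM was 915481 at 48 h and 1013730 at 6 h. After that rescaling the counts past 2-fold were 1815 higher and 859 lower, and higher genes made up 67.9% of the genes past 2-fold, against 59.3% as deposited.

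Short genes were more often lower at 48 h than long genes. Gene span, measured on the contig with any introns, had a median of 1494 bases for the higher genes, 1227 for the lower genes and 1575 for the genes within 2-fold. In the shortest of 4 equal groups of members, with spans of 180 to 1033 bases, 16.7% were at least 2-fold lower. In the longest group, from 2140 bases up, 5.22% were lower, against the 12.0% of all members. The shares of higher genes differed less, at 18.8% in the shortest and 14.9% in the longest group. The shortest group also had the highest level, with a median of 46.9 FPKM at the higher end, against 30.2 to 36.3 FPKM in the other groups. Among genes of at least 30 FPKM at the higher end, a choice made after the data were seen, 16.9% of the shortest and 5.55% of the longest group were lower. Their medians at the higher end were 110 and 64.7 FPKM, so this choice did not make the groups alike in level. The part of level in the difference by span was not tested. After rescaling to a common sum, 13.5% of the shortest and 3.76% of the longest group were lower, over all members. Any part of fragment length, transcript ends or RNA quality in this pattern was not tested. The 8 long contigs were more alike, with 14.2% to 21.5% of their genes higher and 10.4% to 14.1% lower.

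The genes that took the most fragments were largely the same at both ends. The 10 most abundant genes took 18.9% of all fragments at 48 h and 19.9% at 6 h, and 7 genes were among the first 10 at both times. The most abundant genes that together held 50% of the fragments numbered 386 at 48 h, against 328 at 6 h. Over the whole course that number was 328 after 6 h, 321 after 12 h, 365 after 24 h, 422 after 36 h and 386 after 48 h, so the fragments were spread over the most genes at 36 h. Among the 100 genes of highest FPKM at each end, 72 were shared. Of the first 100 at 48 h, 13 belonged to the genes at least 2-fold higher than at 6 h. Of the first 100 at 6 h, 23 were at least 2-fold lower at 48 h. Among all 9036 members, 17.5% were at least 2-fold higher and 12.0% at least 2-fold lower. Each list was ranked by a library that also enters the fold change, so these counts follow in part from that choice.

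The gene with the most fragments at both ends lay on contig 1 from 2874224 to 2876395. Its share of all fragments was 4.05% after 6 h, 4.61% after 12 h, 4.37% after 24 h, 2.92% after 36 h and 4.32% after 48 h. Its level was thus alike at the ends and lowest at 36 h. The gene of highest FPKM at both ends, on unitig_2 from 3499129 to 3499977, was at 40226 FPKM after 6 h, 45185 after 12 h, 52492 after 24 h, 53274 after 36 h and 39518 after 48 h. Its log2 change was -0.03 as deposited and 0.12 after rescaling to a common sum, so it has no direction that holds under both scales. Of the other 4 genes among the first 6 at both ends, the genes on unitig_4 from 3214751 and on unitig_3 from 3238295 also had ratios of 48 h to 6 h close to 1, at 1.07 and 0.954.

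The largest gain in share of fragments belonged to the gene on contig 1 from 934992 to 938115, which took 4.04% at 48 h and 2.64% at 6 h. Its FPKM was 9529 after 6 h, 10307 after 12 h, 9665 after 24 h, 8264 after 36 h and 14669 after 48 h. The values up to 36 h lay between 8264 and 10307, and the 48 h library was the highest at 3 vvm, while the gene was at 4112 FPKM at 48 h and 1.5 vvm. The gene with the next largest gain, on contig 1 from 4189517 to 4191007, took 0.346% at 48 h and 0.00122% at 6 h. It stood at 10.01 FPKM after 6 h, 514 after 12 h, 3000 after 24 h, 2018 after 36 h and 2832 after 48 h, and it had reached its final level by 24 h. The ratio of its fragments at 48 h to those at 6 h, relative to depth, was 283 (95% counting interval 221 to 369).

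The largest loss in share was that of evm.model.unitig_5.208 (unitig_5, 622360 to 623706), which took 0.852% at 48 h and 2.91% at 6 h. It was at 29329 FPKM after 6 h, 21269 after 12 h, 18547 after 24 h, 13211 after 36 h and 8810 after 48 h. Each value was below the one before, the fragments at 48 h were 3.41-fold lower than at 6 h (3.38 to 3.45), and the gene still ranked 6th by fragments at 48 h. The next loss, evm.model.unitig_6.59 (unitig_6, 212425 to 213654), ran another course. It was at 7968 FPKM after 6 h, 33.4 after 12 h, 4.34 after 24 h, 5.29 after 36 h and 6.44 after 48 h, which places nearly all of the decline before 12 h. Its rank by fragments was 7340 at 48 h and 8 at 6 h. At 48 h and 1.5 vvm it was at 1473 FPKM.

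A further gene that left the first 10 lay on unitig_1 from 4765051 to 4765998. It was at 10355 FPKM after 6 h, 282 after 12 h, 161 after 24 h, 55.6 after 36 h and 67.2 after 48 h, with rank 4133 at 48 h and rank 10 at 6 h. The third to leave, on unitig_2 from 3224768 to 3227158, went no further than rank 17, at 1600 FPKM at 48 h and 3228 FPKM at 6 h. In their place among the first 10 at 48 h came the genes on unitig_1 from 3771597 to 3773299, on unitig_5 from 2698309 to 2700730 and on unitig_1 from 1130186 to 1133074. Of these, the first was 2.06-fold higher than at 6 h (2.03 to 2.1), and the other two had ratios of 1.11 and 1.42. Entry into the leading genes thus came by ratios of 1.11 to 2.06 in genes already among the first 21 at 6 h, whereas 2 of the 3 genes that left were lower by over 100-fold.

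**Figure D2:**
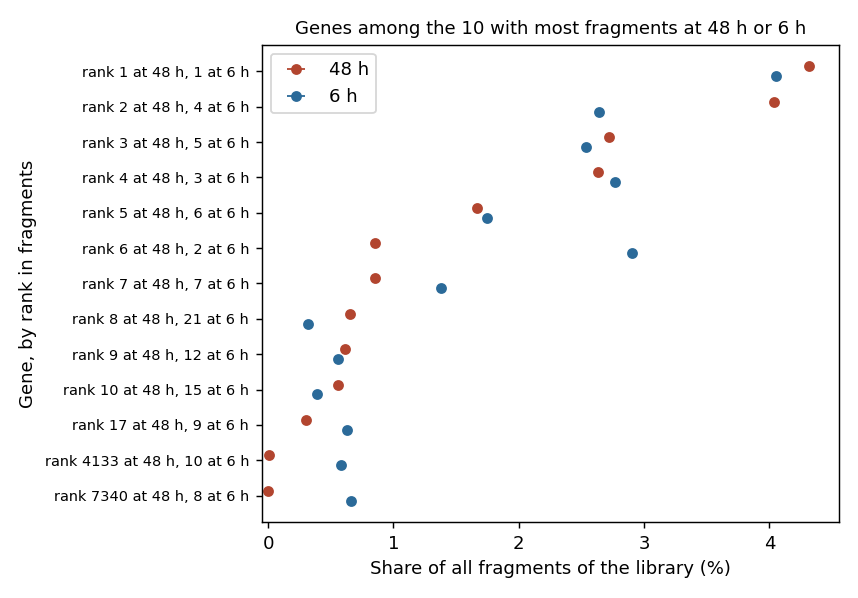
Share of all fragments (horizontal, percent) at 48 h and at 6 h for the 13 genes that were among the 10 with most fragments at either time, 1 gene per line, labelled by rank. Bars are exact 95% counting intervals and are narrower than the points; the gene at rank 6 at 48 h shows the widest gap, and 2 genes of the first 10 at 6 h are near 0 at 48 h.

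Over the whole set, the higher and the lower genes exchanged a similar part of the library. The 1577 higher genes took 19.0% of the fragments at 48 h and 4.93% at 6 h. The 1083 lower genes took 5.14% at 48 h and 19.2% at 6 h. These end values follow from the choice of the genes, and the libraries in between had no part in it. A deviation of the 6 h or the 48 h library alone would enter both the choice and the step next to it, and its part was not tested. The higher genes took 4.93% after 6 h, 10.5% after 12 h, 14.7% after 24 h, 17.6% after 36 h and 19.0% after 48 h. The lower genes took 19.2%, 10.4%, 7.82%, 6.28% and 5.14% at these times. By 12 h the 2 sets held nearly equal shares, and each later step was smaller than the one before. The 6376 genes within 2-fold took between 75.8% (48 h) and 79.0% (12 h) at every time.

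**Figure D3:**
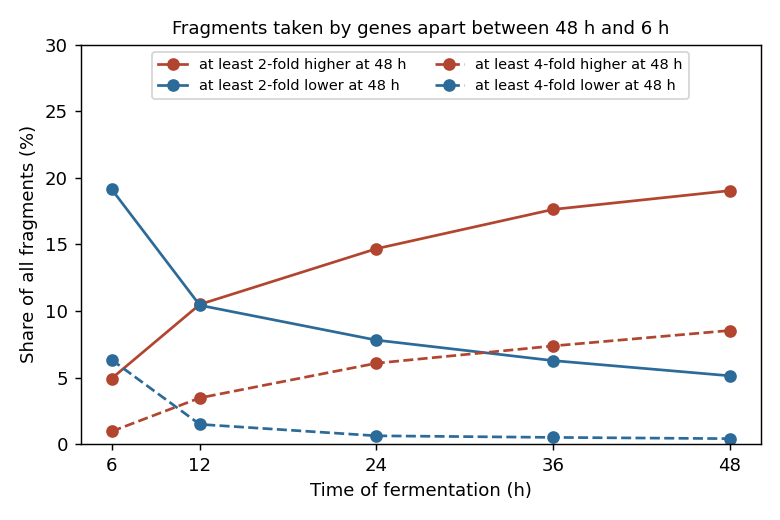
Share of all fragments (vertical, percent) taken at each time (horizontal, hours) by the genes at least 2-fold (solid) and at least 4-fold (dashed) higher or lower at 48 h than at 6 h. The solid lines meet at 12 h, at 10.5% and 10.4%.

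The time at which a large change was under way was taken for the 825 genes at least 4-fold apart. It is the first sampled time at which a gene had gone at least 50% of the way, in log2(FPKM + 1), from its 6 h level to its 48 h level, called its midpoint here. Lower genes reached it earlier than higher genes. Of the 267 lower genes, 147 (55.1%) had reached it by 12 h, 246 (92.1%) by 24 h and 263 (98.5%) by 36 h. Of the 558 higher genes, 205 (36.7%) had reached it by 12 h, 411 (73.7%) by 24 h and 541 (97.0%) by 36 h. Interpolated between samples, the median midpoint was 15.2 h for the higher genes (25th to 75th percentiles 10.9 to 24.9 h) and 11.4 h for the lower genes (9.70 to 17.5 h). At 12 h the median gene had covered 40.2% of its log2 change among the higher genes and 55.2% among the lower genes. At 24 h these values were 69.4% and 82.8%, and at 36 h 89.6% and 93.4%.

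The size of this gap differed with the scale, and its direction did not. With the midpoint taken on FPKM itself, 16.1% of the higher genes and 79.8% of the lower genes had passed it by 12 h, and 50.5% and 96.6% by 24 h. A linear scale by its construction places the midpoint of an increase later and that of a decrease earlier. With genes chosen at 2-fold or 16-fold, the shares by 12 h were 39.5% and 47.2% for higher genes and 53.7% and 67.9% for lower genes. Among the higher genes, those of high level were earlier: 47.4% of the 175 that reached at least 100 FPKM at 48 h had passed the midpoint by 12 h, against 29.4% of the 85 under 10 FPKM. Among the lower genes no such order was seen at 12 h, with 51.9% of the 104 genes of at least 100 FPKM at 6 h and 59.1% of the 44 under 10 FPKM. By 24 h these shares of the lower genes were 93.3% and 88.6%. With a pseudocount of 1 FPKM the log2 scale is closer to linear for low genes. By construction this places their increases later and their decreases earlier. The part of the scale in these differences by level was not tested. Of the genes at least 4-fold apart, 33 of the 558 higher and 23 of the 267 lower had under 10 fragments even at their higher end. Each share at 12 h rests on 1 library at 12 h and 1 at each end.

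**Figure D4:**
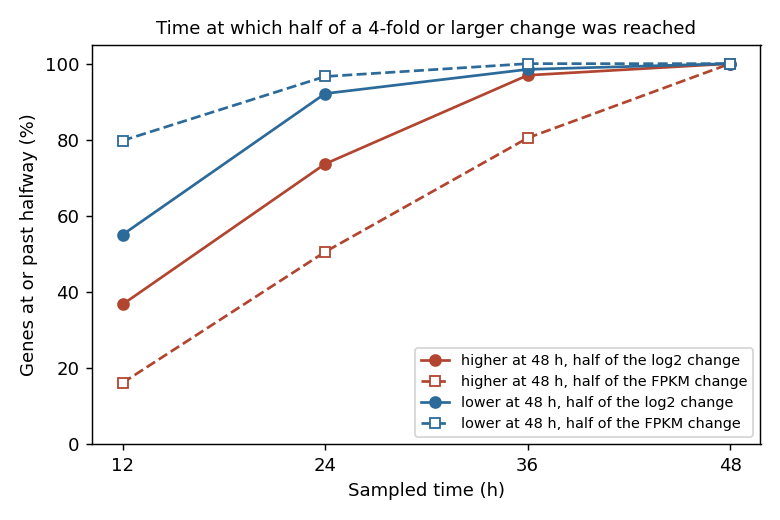
Percent of genes (vertical) at or past the midpoint of their change at each sampled time (horizontal, hours), for the 558 genes at least 4-fold higher and the 267 at least 4-fold lower at 48 h, on the log2 scale (solid) and on FPKM (dashed). Lower genes lie above higher genes at 12, 24 and 36 h on both scales.

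The 205 higher genes with a midpoint by 12 h also had the highest median at 48 h of the midpoint classes, with the limit of scale given above. Their median was 6.74 FPKM after 6 h, 38.0 after 12 h, 51.1 after 24 h, 72.8 after 36 h and 71.8 after 48 h. They took 4.35% of the fragments at 48 h and 0.445% at 6 h. The most abundant of them, on unitig_5 from 1402500 to 1402976, was at 728 FPKM after 6 h, 2628 after 12 h, 3842 after 24 h, 4008 after 36 h and 5541 after 48 h. Each later sample was above the one before. Of the 205 genes, 30 had no fragment at 6 h.

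The 206 higher genes with a midpoint by 24 h had a median of 4.88 FPKM after 6 h, 10.4 after 12 h, 31.1 after 24 h, 37.3 after 36 h and 45 after 48 h. The most abundant, on unitig_3 from 1053516 to 1054359, was at 231 FPKM after 6 h, 860 after 12 h, 2300 after 24 h, 3635 after 36 h and 3976 after 48 h. In the 130 genes with a midpoint by 36 h the median was 1.98 FPKM after 6 h, 3.53 after 12 h, 4.23 after 24 h, 17.1 after 36 h and 33.3 after 48 h. The largest step of this median fell between 24 and 36 h on a ratio scale. Its most abundant gene, on unitig_2 from 4754900 to 4755402, was at 166 FPKM after 6 h, 323 after 12 h, 491 after 24 h, 1421 after 36 h and 6649 after 48 h. The step between 36 and 48 h was larger, in FPKM, than all earlier steps together. At 48 h and 1.5 vvm it was at 1458 FPKM.

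Only 17 of the higher genes had their midpoint after 36 h. Their median was 0.739 FPKM after 6 h, 0.609 after 12 h, 0.975 after 24 h, 2.66 after 36 h and 10.8 after 48 h, so most were at low level throughout. The most abundant, on unitig_1 from 1756418 to 1757170, had 8 fragments at 6 h and 3 at 12 h. Its FPKM was 3.53 after 6 h, 1.24 after 12 h, 2.76 after 24 h, 15.9 after 36 h and 258 after 48 h. The ratio of 48 h to 6 h was 73.1, with a counting interval of 36.9 to 170 that reflects the few fragments at 6 h.

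The 147 lower genes with a midpoint by 12 h were at a median of 50.1 FPKM after 6 h, 7.15 after 12 h, 5.57 after 24 h, 4.49 after 36 h and 3.94 after 48 h. They took 0.244% of the fragments at 48 h and 4.44% at 6 h, and they held 2 of the 3 genes that left the first 10, on unitig_6 from 212425 and on unitig_1 from 4765051. The 99 lower genes with a midpoint by 24 h had a median of 69.2 FPKM after 6 h, 39.8 after 12 h, 11 after 24 h, 10.4 after 36 h and 6.25 after 48 h. The most abundant of these, on unitig_5 from 1074203 to 1075038, was at 7072 FPKM after 6 h, 1027 after 12 h, 99.3 after 24 h, 170 after 36 h and 43.3 after 48 h. At the median, the second set was still at 39.8 FPKM at 12 h, where the first had come down to 7.15. The sets were sorted by these values, so their courses describe them and test nothing.

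Late losses were few. A midpoint by 36 h was found in 17 lower genes, with a median of 82.2 FPKM after 6 h, 38.2 after 12 h, 26.4 after 24 h, 7.43 after 36 h and 5.19 after 48 h. Their most abundant gene, on unitig_4 from 660820 to 661960, was at 959 FPKM after 6 h, 1694 after 12 h, 476 after 24 h, 236 after 36 h and 146 after 48 h, so it was highest at 12 h before it declined. Another 4 lower genes had their midpoint after 36 h, and 3 of them had no fragment at 48 h. The most abundant, on unitig_4 from 3918866 to 3921174, was at 20.2 FPKM after 6 h, 17.0 after 12 h, 13.1 after 24 h, 8.99 after 36 h and 3.49 after 48 h.

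**Figure D5:**
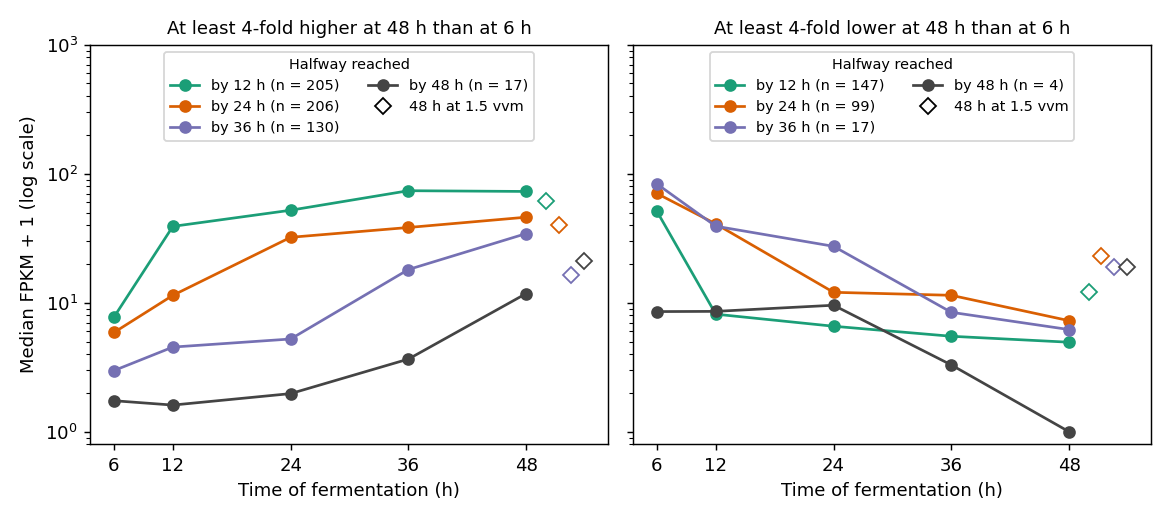
Median FPKM + 1 (vertical, log scale) at each time (horizontal, hours) for genes at least 4-fold higher (left) or lower (right) at 48 h, split by the sampled time at which the midpoint was reached. Diamonds, set to the right of 48 h for legibility, are the medians of the same genes at 48 h and 1.5 vvm, and those of all 4 lower sets lie above the medians at 48 h and 3 vvm.

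The courses were seldom straight. Of the 558 genes at least 4-fold higher, 206 (36.9%) increased or stayed level at every step, and of the 267 at least 4-fold lower, 91 (34.1%) decreased or stayed level at every step. Of all genes within 2-fold at the ends, 342 of 6376 (5.36%) moved one way throughout. These sets were chosen by the difference between their ends, so the lower share in the last set follows in part from that choice. At a time in between, 219 of the higher genes (39.2%) were above and 109 of the lower genes (40.8%) were below their 48 h level, by at least 2-fold in 24 and 13 genes. At 12 h, 40 of the higher genes were below their 6 h level, and 14 of the lower genes were above it.

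A few genes differed in the middle of the course and hardly at its ends. Of 4527 members within 1.5-fold at 48 h and 6 h, 9 were at least 4-fold above both ends at a time in between and 19 were at least 4-fold below both. The 9 were highest at 12 h in 7 cases and at 24 h in 2. The 19 were lowest at 12 h in 14 cases and at 24 h in 5. None of the 28 had its extreme at 36 h. Many rest on few fragments: at their higher points 5 of the 9 and 5 of the 19 had at least 100 fragments, and 3 and 11 spanned under 500 bases. The most abundant, on unitig_6 from 2845275 to 2847581, was at 234 FPKM after 6 h, 5321 after 12 h, 250 after 24 h, 71.0 after 36 h and 177 after 48 h. It had 19026 fragments in the 12 h library, and in no other at 3 vvm over 1000. In the other direction, the gene on unitig_4 from 1814548 to 1815962 was at 737 FPKM after 6 h, 110 after 12 h, 1320 after 24 h, 836 after 36 h and 643 after 48 h. Both extremes are values of the single 12 h library.

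The 2 genes with the largest log2 changes in each direction, among genes of at least 10 FPKM at the higher end, also differed in course. The largest in the higher direction, 9.19, was that of the gene on unitig_2 from 4146864 to 4147336. It had no fragment at 6 and 12 h and was at 353 FPKM after 24 h, 53.1 after 36 h and 582 after 48 h. Relative to depth, its 278 fragments at 48 h were 76.9-fold above the 3 that a count of 0 allows at 6 h, and the exact 95% counting interval puts the ratio at 62.1 or more. As the 6 h value is 0, the size of its log2 change and its first rank depend on the pseudocount. The course was not steady, and at 48 h and 1.5 vvm the gene was at 4141 FPKM. The other gene in that direction was that on contig 1 from 4189517, described above. Lower by the most were evm.model.unitig_6.59, with a log2 change of -10.07, and the gene on unitig_5 from 3473625 to 3474527, with -7.45. The gene on unitig_5 was at 2240 FPKM after 6 h, 108 after 12 h, 14.6 after 24 h, 18.5 after 36 h and 11.8 after 48 h. Both had passed the midpoint by 12 h.

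Neighbouring genes that were far apart from their 6 h level in the same direction often shared the time of change as well. Among the members, 115 pairs of neighbours on a contig were both at least 4-fold higher and 52 pairs were both at least 4-fold lower. A further 34 pairs were apart in opposite directions. Over all 9036 members, 6.18% were at least 4-fold higher and 2.95% at least 4-fold lower. The counts of pairs were not compared with the numbers that these shares alone would give. The midpoint fell at the same sampled time in 70 of the 115 higher pairs (60.9%) and in 31 of the 52 lower pairs (59.6%). Over all possible pairs of these genes, near or far, the share with the same time was 32.5% for the higher and 44.3% for the lower genes. Neighbouring pairs overlap and are not independent, and no test of the difference was made.

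Longer stretches also differed in their time of change. There were 23 runs of at least 5 consecutive members, each at least 2-fold apart in 1 direction, a rule set after the data were seen. The 17 higher runs held 99 genes and the 6 lower runs 43. In each run the midpoints of its genes were interpolated, and their median was taken. Across the 6 lower runs this median lay between 9.68 and 14.3 h, and across the 17 higher runs between 9.63 and 33.5 h. It was at most 12 h in 7 of the higher runs and in 4 of the lower runs, and it was after 24 h in 3 higher runs and in no lower run. Of all genes at least 2-fold higher, 39.5% had passed the midpoint by 12 h and 73.7% by 24 h. For all genes at least 2-fold lower these shares were 53.7% and 86.8%. Whether runs differ in timing from other genes was not tested.

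The earliest higher run was that on contig 1 from 4269213 to 4295529, where the midpoint fell by 12 h in 5 of 7 genes and by 36 h in the other two. In the 8 genes on contig 1 from 4186899 to 4206859 the midpoint fell by 12 h in all 8, and these include the gene from 4189517 described above. Among the runs of 5 genes, that on contig 1 from 1466943 to 1478048 stood at a median of 24.1 FPKM after 6 h, 47.4 after 12 h, 52.7 after 24 h, 51.5 after 36 h and 52.8 after 48 h. Its level was reached by 12 h and kept. The 6 genes on unitig_3 from 3527403 to 3538679 stood at 3.10 FPKM after 6 h, 24.0 after 12 h, 51.7 after 24 h, 72.0 after 36 h and 92.4 after 48 h, and increased at each step.

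The 3 late runs were all higher at 48 h and had 5 genes each. The 5 genes on contig 1 from 1518226 to 1540258 lay at a median of 1.48 FPKM after 6 h, 1.47 after 12 h, 4.28 after 24 h, 9.74 after 36 h and 36.9 after 48 h, and the midpoint fell by 36 h in 4 of them. On unitig_6 from 26302 to 41402, 5 genes had a median of 0.0419 FPKM after 6 h, 0.124 after 12 h, 2.65 after 24 h, 4.35 after 36 h and 16.3 after 48 h. Both runs were higher again in the 1.5 vvm library, at medians of 119 and 177 FPKM. The third, on unitig_1 from 3675220 to 3686344, was at 13.1 FPKM after 6 h, 31.4 after 12 h, 44.1 after 24 h, 44.1 after 36 h and 69.7 after 48 h, and its 5 genes fell into all 4 midpoint classes. In the first 2 of these runs the least covered gene had 3 and 4 fragments at 48 h, so single members are not well measured.

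Of the lower runs, those on contig 1 from 3043016 to 3062650 and on unitig_1 from 4759122 to 4799319 had their midpoint by 12 h in 8 of 10 and 8 of 11 genes. The least covered gene of the first had 1 fragment at 6 h. The second holds the gene from 4765051 that left the first 10. Slower were the 5 genes on unitig_2 from 1409666 to 1421731, with a median of 126 FPKM after 6 h, 62.5 after 12 h, 9.76 after 24 h, 14.3 after 36 h and 10.6 after 48 h. The 6 genes on unitig_3 from 102507 to 130546, at 24.4 FPKM after 6 h, 15.8 after 12 h, 6.48 after 24 h, 2.91 after 36 h and 2.36 after 48 h, were the slowest of the 6. The run on unitig_4 from 92087 to 104151 kept the highest level, with a median of 56.8 FPKM at 48 h and 187 FPKM at 6 h.

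The library at 48 h and 1.5 vvm gave a second reading of the same genes at 48 h, with less air and from the other deposited table. The higher genes, of which 1574 of 1577 were listed there, had a median of 30.4 FPKM at 1.5 vvm, 35.0 at 48 h and 3 vvm, and 7.39 at 6 h. The lower genes, 1076 of 1083 listed, had a median of 26.5 FPKM at 1.5 vvm, 12.2 at 48 h and 3 vvm, and 46.6 at 6 h. Both medians at 1.5 vvm thus lay between those at the 2 ends. Among the large changes, the higher genes with a midpoint by 12 h stood at 60.9 FPKM at 1.5 vvm and 71.8 FPKM at 48 h and 3 vvm, and those with a midpoint by 24 h at 39.2 and 45 FPKM. The classes with later midpoints were further apart, at 15.5 FPKM at 1.5 vvm and 33.3 FPKM at 3 vvm for a midpoint by 36 h, and at 20.03 and 10.8 FPKM for one after 36 h. The lower genes with a midpoint by 12 h stood at 11.1 FPKM at 1.5 vvm and those with a midpoint by 24 h at 22.1 FPKM, against 3.94 and 6.25 FPKM at 48 h and 3 vvm. The genes within 2-fold were at 34.7, 31.1 and 30.9 FPKM in the same 3 libraries. The genes were chosen as high or low in the 48 h library at 3 vvm, so part of the difference from a second library can come from that choice. Aeration, culture and table differ together and cannot be told apart.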

How the data were processed

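RNA from 6 libraries, 1 per group, was measured by RNA sequencing, and the labels' age and aeration set the groups. Per the labels' protocols, the Illumina TruSeq RNA kit was used, and no source used here says whether strand was counted. The FPKM values are deposited by the authors in 2 tables, and TopHat2 2.0.9 with Cufflinks 2.1.1 are named in the submitters' processing notes. Genome build: not given in the sources used here. By their values, the deposited columns headed counts hold a signal scaled to 1 total per table. Dividing by the smallest step gave whole fragments, within 0.1, for at least 99.9% of values, and totals ran from 5062817 to 6708035. At 36 h the step is close to 1, so rounding alone could look alike there. At 24 h both tables give the same FPKM at 9930 of 9930 shared loci. The second table held 4 further columns that match no label and were not used. Genes were keyed by locus, since 1 identifier occurs at 2 loci. Coordinates are those of the authors' contigs, counted from 1.

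Log2 changes used a pseudocount of 1 FPKM and genes of at least 1 FPKM at either end. Midpoints were interpolated linearly in hours. Intervals are exact 95% binomial (Clopper-Pearson) and reflect counting error alone, as the labels name no molecular identifiers. Scripts were tested on simulated data. The alternatives tried were other pseudocounts, filters, scalings, fold limits and midpoint rules, leaving out a library in between, and a trend fitted with edgeR 4.0.16 in R 4.3.3. Named genes were the 10 with most fragments at each end, the 2 largest gains and losses of share, the 2 largest log2 changes each way, the most abundant of each midpoint class, and the most abundant gene with an extreme in between, beside which the most abundant gene with a minimum in between was added after its values were seen. Identifiers are printed for 2 genes. The runs, neighbour pairs and groups by span and level were chosen with the data in view, and all members and rules were chosen with earlier results of these data known. Tables used Python 3.11.15, pandas 2.3.3 and scipy 1.17.1.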

Additional observations from a re-analysis of the deposited data

Results flagged for a closer look

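Of the 917 genes below 1 FPKM at both 48 and 6 h, which the comparison of the ends leaves out, 268 had more than the 3 fragments that a count of 0 allows in at least 1 of the 3 libraries in between. By single library the number was much the same at the ends as in between, with 153 genes after 6 h, 157 after 12 h, 152 after 24 h, 160 after 36 h and 161 after 48 h. The share of fragments of the 917 genes lay between 0.0328% (6 h) and 0.0375% (12 h), so these counts show no signal particular to the middle of the course. At a time in between 153 genes reached 1 FPKM. Only 6 reached 10 FPKM, with 1 to 86 fragments each, and the highest value, 78.7 FPKM, came from 1 fragment.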

How the results depend on the processing

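Counts moved with the pseudocount, which acts on low genes: 414 genes were at least 4-fold lower with 0.1 FPKM, while with 5 FPKM 696 were at least 2-fold lower, 316 at least 4-fold higher and 153 at least 4-fold lower. A filter at 10 FPKM, other scalings and fragments relative to depth kept each count of genes past 2-fold or 4-fold within 1.5 times of its main value. Using no filter could change no count. A gene below 1 FPKM at both ends cannot reach 2-fold with a pseudocount of 1 FPKM. The edgeR trend over log2 time, another rule than a 2-fold difference, called 874 of 8987 genes rising and 858 falling at an adjusted p threshold of 0.05. These counts were nearly even, whereas 59.3% of the genes past 2-fold were higher at 48 h. The trend used fragments with edgeR's own scaling and genes of at least 15 fragments in total, so filter and scale differ too. Among genes at least 4-fold apart with a midpoint by 12 h, it called 45.9% of the higher and 80.3% of the lower genes. For a midpoint by 24 h these shares were 83.5% and 89.9%, by 36 h 83.8% and 64.7%, and after 36 h 29.4% and 25%. The spread behind the trend is the deviation of 5 libraries from a line, not a spread between replicates. Ranked and summed by FPKM, the first 10 genes took 14.5% at 48 h and 16.5% at 6 h.

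Shares past the midpoint depended on its rule. On FPKM they were 16.1%, 50.5% and 80.5% of the higher genes by 12, 24 and 36 h, and 79.8%, 96.6% and 100% of the lower genes. If a gene had to stay past the midpoint, 29.7% and 66.1% of the higher genes had passed by 12 and 24 h, and 86.5% and 95.9% of the lower genes by 24 and 36 h. With genes at least 2-fold apart, 93.7% of the higher genes had passed by 36 h and 86.8% of the lower genes by 24 h. With genes at least 16-fold apart, 47.2% of the higher and 67.9% of the lower genes had passed by 12 h, and 100% of the lower genes by 36 h. With a pseudocount of 5 FPKM, 95.4% and 100% of the lower genes had passed by 24 and 36 h. Leaving out the 12, 24 or 36 h library in turn gave, at the times still sampled, 67.6% to 73.7% of the higher genes by 24 h and 96.4% to 96.8% by 36 h, and 89.1% to 92.1% of the lower genes by 24 h and 96.6% to 98.5% by 36 h. Under each of these rules a larger share of the lower genes had passed by 12 and by 24 h, except that a library left out gives no value at its own time. Apart from the linear scale, the causes of these shifts were not tested.

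No paired analysis was possible because each group has 1 library, and the end libraries cannot be left out. Depth limits the genes with no fragment at 1 end, 120 at 6 h and 65 at 48 h.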
